A study of Mus musculus with 29 samples.

Results

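The genes studied here encode the enzymes that write, copy and remove cytosine methylation in mouse DNA, namely *Dnmt1*, *Uhrf1*, *Dnmt3a*, *Dnmt3b*, *Tet1*, *Tet2*, *Tet3* and *Tdg*. They were found by matching each table's entry name, up to any mark that follows the symbol, to these 8 symbols. All 8 were present once among the 24732 entries of the tables aligned to mm9 and once among the 25588 entries of the tables aligned to mm10. RNA-seq had been performed on pro-B cells, the B cell progenitors of the bone marrow, which were sorted ex vivo by flow cytometry. The study investigated a leukemia driven by a fusion of the transcription factor Pax5 with the kinase Jak2, and compared wild-type with Pax5(-/-) cells to find the genes that depend on Pax5. The groups were 3 libraries from wild-type mice, 2 libraries from Pax5(-/-) mice and 3 libraries from Pax5(+/+) Meox2-cre mice at the age of 3 weeks, each of the last made from pooled material. All mice were on the C57BL/6 background, and the age of the wild-type and Pax5(-/-) mice is not given in the sources used here. Meox2-cre expresses the Cre recombinase in the early embryo and therefore acts in nearly all tissues. The labels call these mice Pax5(+/+), whereas the study's list of sequencing experiments names them Pax5(+/-) with 1 Meox2-cre allele, and this was not settled here. Wild-type pro-B cells and Pax5-deficient progenitors were sorted with gates that differed, and Ly6D+ was asked only of the latter, so that the genotype and the gate cannot be told apart. No source states that the libraries of a group came from separate mice, and p-values then measure only the spread between these libraries.

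DNA methylation is placed on cytosines that precede a guanine, the CpG dinucleotides. *Dnmt1* copies the methylation pattern onto the new strand after replication and is brought to half-methylated sites by *Uhrf1*, whereas *Dnmt3a* and *Dnmt3b* methylate sites that were unmethylated before. The dioxygenases *Tet1*, *Tet2* and *Tet3* oxidize 5-methylcytosine, and the glycosylase *Tdg* cuts out the most oxidized forms, which base excision repair then replaces by cytosine. In blood cells *Dnmt3a* and *Tet2* restrain stem cell self-renewal, and their mutation is common in leukemia, while *Tet2* and *Tet3* together are required for normal B cell development.

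The values are TPM, a level per transcript length that is scaled to a sum of 1000000 in every library. TPM keep no read counts, so the number of reads behind a value is unknown. From the steps between low values, the wild-type libraries had relative depths of 1.00, 1.02 and 1.03 and the Pax5(-/-) libraries of 0.855 and 1.54. Pax5 was at 342, 386 and 391 TPM in wild-type cells and at 43.0 and 39.1 TPM in those labelled Pax5(-/-), and thus lower but not at 0 in the libraries labelled Pax5(-/-). *Ly6d*, the gate marker of the Pax5-deficient cells, was at 190.0 to 270.5 TPM in wild-type and at 2258 and 3033 TPM in Pax5(-/-) cells. The summed level of 11 T cell markers was 95.5 to 112 TPM in wild-type and 222 and 229.8 TPM in Pax5(-/-) cells, and most of it was *Lck*. Of 5 that were tested, *Lck*, *Cd247* and *Cd4* rose and *Thy1* and *Cd5* fell, while *Cd3d*, *Cd3e* and *Cd3g* were at or below 0.432 TPM in every library of both genotypes. The sum of 10 natural killer and innate lymphoid markers was 5.57 to 17.4 TPM in wild-type and 25.8 and 32.8 TPM in Pax5(-/-) cells. Of 5 tested, *Nkg7* and *Gzma* rose and *Klrb1c* fell, and *Ncr1* was at or below 0.167 TPM in every library. The sum of 10 plasmacytoid dendritic cell markers was 422 to 476 TPM in wild-type and 268 and 382 TPM in Pax5(-/-) cells. This sum was lower with *Irf8* and *Tcf4*, which fell, whereas 4 of the 8 tested rose (*Cox6a2*, *Tlr7*, *Pacsin1* and *Siglech*) and the median log2 fold change was 1.19. By the test described below, 15.6% of all genes tested were higher and 21.5% lower, with a median of -0.12. Wild-type means were near the floor for *Siglech* (0.600 TPM), *Cd4* (0.534 TPM), *Gzma* (0.523 TPM) and *Cd247* (0.512 TPM). The sums of 11 myeloid entries (58.1 to 279 against 84.1 and 123 TPM) and of 11 erythroid and megakaryocyte markers (235 to 455 against 289 and 417 TPM) overlapped. The part of other cell types in the results below was not tested. In bulk samples, fewer cells of a type and less RNA per cell cannot be told apart.

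Of the 8 genes, *Dnmt3b* rose and *Tet1* fell in Pax5(-/-) cells, and the other 5 that were tested did not pass the threshold. The test was limma on log2(TPM + 0.5) for 3 wild-type against 2 Pax5(-/-) libraries, and a change means a p-value below 0.05 after Benjamini-Hochberg adjustment over 12066 genes, those whose mean exceeded 1 TPM in either genotype. *Tdg* was below that mean and was not tested. Among all genes tested, 15.6% were called higher and 21.5% lower, so that 1 higher and 1 lower of 7 lie near these shares. The median log2 fold change of the 7 genes was -0.08, beside -0.12 for all genes tested. The libraries of the genotypes did not overlap for 3 of the 7 genes, *Dnmt1*, *Dnmt3b* and *Tet1*, and for 63.4% of all genes tested.

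**Figure D1:**
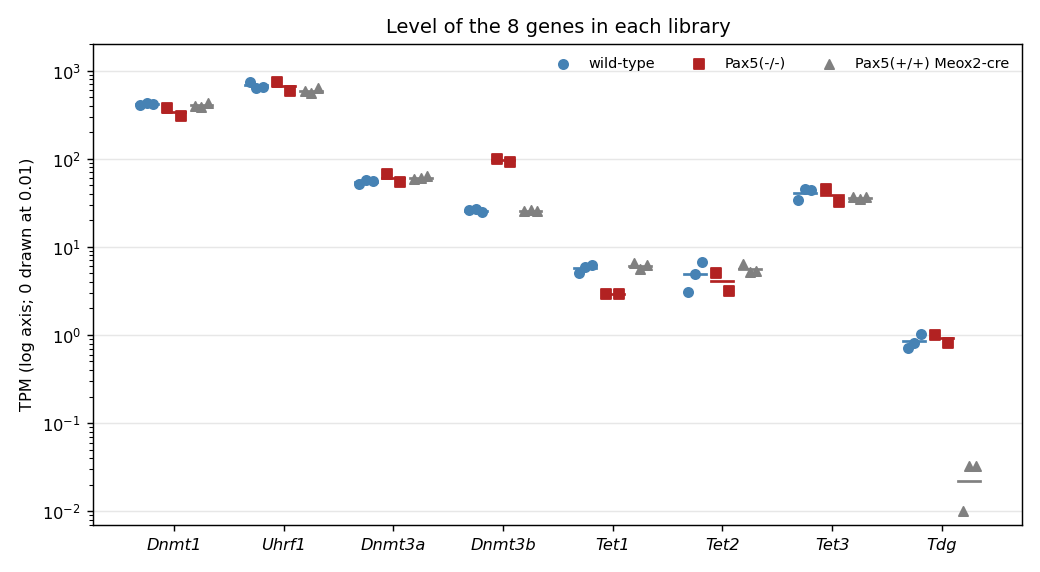
Level of each gene in TPM on a log axis, with 1 point per library and a line at the mean of each group (circles, 3 wild-type; squares, 2 Pax5(-/-); triangles, 3 Pax5(+/+) Meox2-cre, whose values come from tables normalized separately). Dnmt3b sits at 24.6 to 26.6 TPM in wild-type and at 92.6 and 100.3 TPM in Pax5(-/-) libraries, while Tdg is at or below 1.03 TPM everywhere and was drawn at 0.01 where it is listed at 0.

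The genes for maintenance methylation were the most abundant of the 8. *Uhrf1* was at 741, 639.9 and 649 TPM in wild-type cells and at 746 and 579 TPM in Pax5(-/-) cells. The highest and the lowest library were both Pax5(-/-), and the groups overlapped. The log2 fold change of *Uhrf1* was -0.04 ± 0.13 (SE, limma adjusted p = 0.84), with a 95% interval from -0.35 to 0.28, and turned to 0.07 with the libraries rescaled by median ratios and to 0.07 with quantile normalization. *Dnmt1* was at 410.0, 433 and 415 TPM in wild-type and at 374 and 303 TPM in Pax5(-/-) cells, so that every Pax5(-/-) library was below every wild-type library. The difference of -0.32 ± 0.11 in log2 (SE, 95% interval from -0.58 to -0.05) did not pass the threshold across all genes (limma adjusted p = 0.062, unadjusted p = 0.025). The ratio of *Uhrf1* to *Dnmt1* was 1.81, 1.48 and 1.56 in wild-type and 2.00 and 1.91 in Pax5(-/-) cells, and the genotypes did not overlap. The exact two-sided permutation test gave p = 0.2, and since 3 against 2 libraries cannot go below 0.1, this test cannot reach 0.05.

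Since both genes are transcribed mainly in dividing cells, their levels were set beside 20 genes of S phase and mitosis. The summed level of these genes was 5488 to 6147 TPM in wild-type and 5006 and 4358 TPM in Pax5(-/-) cells. The second Pax5(-/-) library was the lower one for this sum, for *Dnmt1* and for *Uhrf1*. It was also the lower one for every other gene studied here, such as *Dnmt3a* (67.5 and 54.6 TPM) and *Tet3* (45.7 and 32.2 TPM). This order is therefore not particular to *Dnmt1* and *Uhrf1*. Of the 20 genes, 1 rose, 10 fell and 9 did not pass, with a median log2 fold change of -0.45, beside 15.6% higher, 21.5% lower and a median of -0.12 over all genes tested. *E2f2*, a transcription factor of the G1 to S transition, fell from 377, 396 and 377 TPM to 61.7 and 46.1 TPM (log2 fold change -2.83 ± 0.13, SE, limma adjusted p = 1.2e-05). *Rrm2*, the regulated subunit of ribonucleotide reductase, fell from 569 to 659.9 TPM to 222 and 172 TPM. *Cdt1*, which licenses replication origins, rose from 162 to 166 TPM to 288 and 226 TPM, a call that was lost without Pax5(-/-) library 1 (limma adjusted p = 0.059). None of the 6 Mcm helicase genes of the list passed the threshold, with log2 fold changes from -0.07 to 0.25. The part of cell division in the levels of *Dnmt1* and *Uhrf1* was not tested.

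The main change was in the de novo methyltransferases. *Dnmt3b* was at 26.2, 26.6 and 24.6 TPM in wild-type cells and at 100.3 and 92.6 TPM in Pax5(-/-) cells. Both Pax5(-/-) libraries lay far above the wild-type libraries, which differed little among themselves. *Dnmt3b* was 3.69-fold higher in Pax5(-/-) cells (95% interval from 3.08 to 4.42), with a log2 fold change of 1.88 ± 0.11 (SE, limma adjusted p = 3.1e-05). It alone among the 8 genes was past the study's 3-fold rule, which asks for an adjusted p below 0.05 together with a fold above 3 and a mean over 5 TPM in either genotype, and which 2.71% of all genes tested met as higher. The interval lies above 3-fold, whereas limma's treat test, which asks whether a change exceeds 3-fold at an adjusted p below 0.05, called none of the 8 genes. By size of the increase *Dnmt3b* ranked 340 of 12066, and 6.74% of all genes tested had a larger change in either direction. *Dnmt3a* was at 51.3, 56.6 and 55.4 TPM in wild-type and at 67.5 and 54.6 TPM in Pax5(-/-) cells. Its groups overlapped, and the log2 fold change of 0.16 ± 0.13 (SE) did not pass the threshold (limma adjusted p = 0.37, 95% interval from -0.14 to 0.46).

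The order of the 2 de novo enzymes was inverted between the genotypes. Since TPM are per transcript length, levels of different genes can be added. The sum of *Dnmt3a* and *Dnmt3b* was 77.4, 83.2 and 80.1 TPM in wild-type and 168 and 147 TPM in Pax5(-/-) cells. *Dnmt3b* made up 33.8, 31.9 and 30.7% of this sum in the wild-type libraries and 59.8 and 62.9% in the Pax5(-/-) libraries. Its mean share was 32.2 ± 1.54% (SD, n = 3) against 61.3 ± 2.20% (SD, n = 2), and no library of one genotype reached the other. The exact two-sided permutation test gave p = 0.1, the smallest it allows here, and 0.15 after Benjamini-Hochberg adjustment over the 9 sums, shares and ratios compared. In the Pax5(+/+) Meox2-cre libraries the share of *Dnmt3b* was 30.2, 30.5 and 28.5%, just below the wild-type range, although those tables were normalized separately and no test was made.

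**Figure D2:**
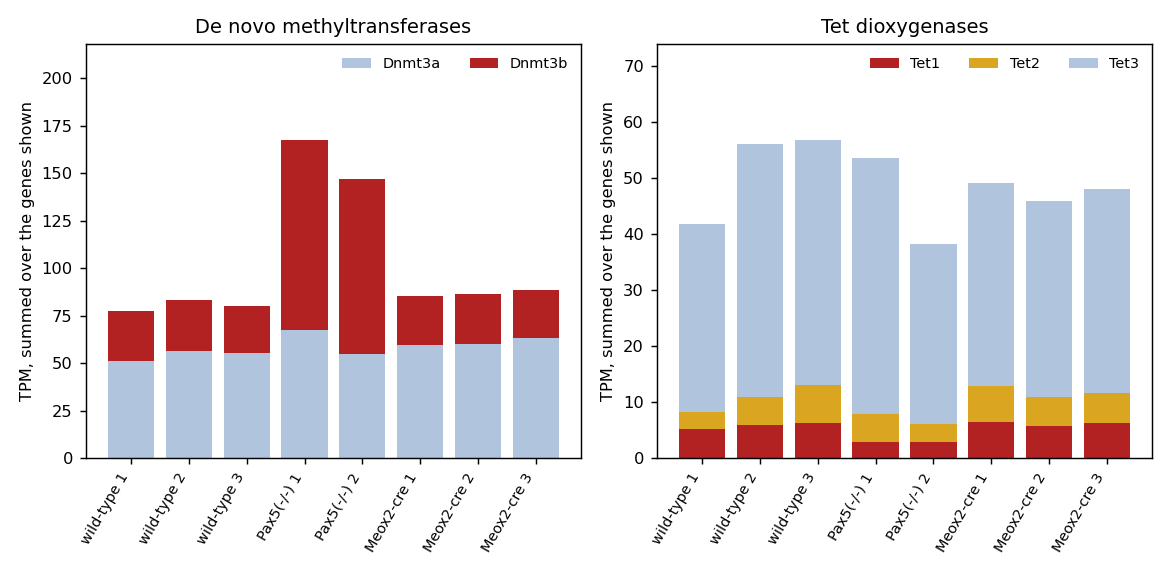
Summed TPM of the de novo methyltransferases (left) and of the Tet dioxygenases (right), with 1 stacked bar per library and 1 colour per gene. The Dnmt3b segment makes up 59.8 and 62.9% of the left bar in the Pax5(-/-) libraries and 28.5 to 33.8% in the other libraries, while Tet3 fills 73.9 to 85.2% of every right bar.

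The patterns over the 5 libraries most like that of *Dnmt3b* were those of *Fam213b*, *Ccdc40* and *Coro2a*. Likeness was measured as the largest difference between 2 genes in any library, after log2(TPM + 0.5) of each gene had been centred on its mean over the 5 libraries. This difference was 0.0495 for *Fam213b*, 0.0593 for *Ccdc40* and 0.0866 for *Coro2a*. *Coro2a*, an actin-binding protein of the coronin family, went from 64.0, 70.2 and 61.8 TPM in wild-type to 267 and 249.5 TPM in Pax5(-/-) cells. *Fam213b* went from 4.19, 4.43 and 3.90 TPM to 17.5 and 16.8 TPM.

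In the mm9 annotation of GENCODE, *Dnmt3b* lies on the plus strand at chr2:153475186-153513466. The promoter that RefSeq gives for it in GRCm38.p6 is at chr2:153649199-153649498, from 250 bases before to 50 bases after the start. It is printed here, 5′ to 3′ with each CpG in capitals, because *Dnmt3b* was the gene with the largest change. The promoter of *Tet1* at chr10:62887275-62887574, on the minus strand, is shown beside it as that of the other gene that passed the test.
Dnmt3b: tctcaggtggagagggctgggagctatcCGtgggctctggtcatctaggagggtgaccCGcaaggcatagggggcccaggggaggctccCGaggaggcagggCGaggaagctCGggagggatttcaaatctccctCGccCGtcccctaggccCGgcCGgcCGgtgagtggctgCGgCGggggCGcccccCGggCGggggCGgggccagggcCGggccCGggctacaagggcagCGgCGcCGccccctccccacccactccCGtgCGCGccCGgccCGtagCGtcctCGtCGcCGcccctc
Tet1: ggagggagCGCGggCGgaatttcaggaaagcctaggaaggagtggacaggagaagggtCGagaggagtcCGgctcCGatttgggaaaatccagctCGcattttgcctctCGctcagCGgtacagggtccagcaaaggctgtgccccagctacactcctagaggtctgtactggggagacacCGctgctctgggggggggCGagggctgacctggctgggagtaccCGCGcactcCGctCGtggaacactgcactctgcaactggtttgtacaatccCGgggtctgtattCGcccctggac
The *Dnmt3b* promoter holds 30 CpG and 76.0% G or C, and 88.3% of the 32851 RefSeq promoters of the same length hold fewer CpG. The *Tet1* promoter holds 17 CpG, with 68.6% of promoters holding fewer. All 8 genes matched the promoter table, with 13 starts, and the starts held between 2 and 57 CpG with a median of 26, beside a median of 7 over all promoters. The first value belongs to 1 of the 3 starts of *Dnmt1*, and the last to *Tet2*. Of 3 motifs searched on both strands, CCCGCC, the core of a GC box, was in 9 of the 13 starts and in 35.3% of all promoters. These starts belong to 6 of the 8 genes, and the first and second starts of *Dnmt3a*, which both hold CCCGCC, overlap. The set of all promoters was not matched to the starts in CpG. CCCGCC was in the *Dnmt3b* promoter and not in the *Tet1* promoter. The E2F-type motif TTTGGCGC was in 1 of the 13 starts, a start of *Dnmt1*, and in 0.514% of all promoters, and TTTCCCGC was in none of the 13 and in 1.07% of all promoters. Neither E2F-type motif was in the *Dnmt3b* or the *Tet1* promoter.

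Among the Tet genes, *Tet3* was the most abundant and *Tet1* changed. *Tet1* was at 5.10, 5.95 and 6.27 TPM in wild-type cells and at 2.91 and 2.88 TPM in Pax5(-/-) cells. The Pax5(-/-) libraries were nearly equal and lay below all wild-type libraries. *Tet1* was at 0.543-fold in Pax5(-/-) cells on the log2(TPM + 0.5) scale, with a log2 fold change of -0.88 ± 0.21 (SE, limma adjusted p = 0.014, 95% interval from -1.36 to -0.40). The call was lost without the first Pax5(-/-) library (log2 fold change -0.89, adjusted p = 0.11), without the second (-0.87, adjusted p = 0.12) and with no filter on low values (adjusted p = 0.054), while the fold changed little. *Tet2* was at 3.10, 4.95 and 6.80 TPM in wild-type and at 5.00 and 3.12 TPM in Pax5(-/-) cells, and both Pax5(-/-) libraries lay within the range of the wild-type libraries. Its log2 fold change was -0.23 ± 0.34 (SE, limma adjusted p = 0.62), with an interval from -1.03 to 0.57 that leaves room for a change as large as that of *Tet1*. *Tet3* was at 33.6, 45.2 and 43.8 TPM in wild-type and at 45.7 and 32.2 TPM in Pax5(-/-) cells, with overlapping groups and a log2 fold change of -0.08 ± 0.19 (SE, limma adjusted p = 0.77) that turned to 0.03 under both of these scalings.

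The 3 Tet genes summed to 51.6 ± 8.45 TPM in wild-type (SD, n = 3) and 45.9 ± 11.0 TPM in Pax5(-/-) cells (SD, n = 2), with libraries that overlapped (exact two-sided permutation p = 0.5). *Tet1* made up 12.2, 10.6 and 11.0% of the sum in wild-type and 5.43 and 7.55% in Pax5(-/-) libraries. *Tet3* made up 80.4, 80.6 and 77.0% in wild-type and 85.2 and 84.3% in Pax5(-/-) libraries. Neither share overlapped between the genotypes, and both tests gave the smallest p that is possible (exact two-sided permutation p = 0.1, adjusted p = 0.15). Both are shares of the same sum, so that a lower share of *Tet1* raises that of *Tet3*, and they are not separate results. The level of *Tet3* itself did not pass the threshold (log2 fold change -0.08). The share of *Tet2* was 9.40 ± 2.33% in wild-type (SD, n = 3) and 8.74 ± 0.818% in Pax5(-/-) cells (SD, n = 2; exact permutation p = 0.9).

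*Tet2* and *Tet3* were low in the same libraries, the first wild-type and the second Pax5(-/-). Relative to the mean of its group, *Tet2* was at -0.54 and *Tet3* at -0.26 in log2 in the first wild-type library, and at -0.30 and -0.25 in the second Pax5(-/-) library. The transcripts of these genes are long, with 9179 bases for *Tet2* and 10904 bases for *Tet3*. Of the other long members, *Dnmt3a* (9685 bases) was at -0.08 and -0.15 in these 2 libraries, and *Tet1* (14369 bases), the longest, was at -0.16 and -0.01. Over all 405 tested genes with a transcript over 8000 bases, the median deviation was -0.21 in the first wild-type and -0.11 in the second Pax5(-/-) library, against -0.01 and 0.01 for 3044 genes with a transcript under 2000 bases. In the other libraries the long genes were at 0.05, 0.16 and 0.11. Lengths were found for 88.9% of the genes tested. The part of transcript length in the spread of *Tet2* and *Tet3* was not tested.

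**Figure D3:**
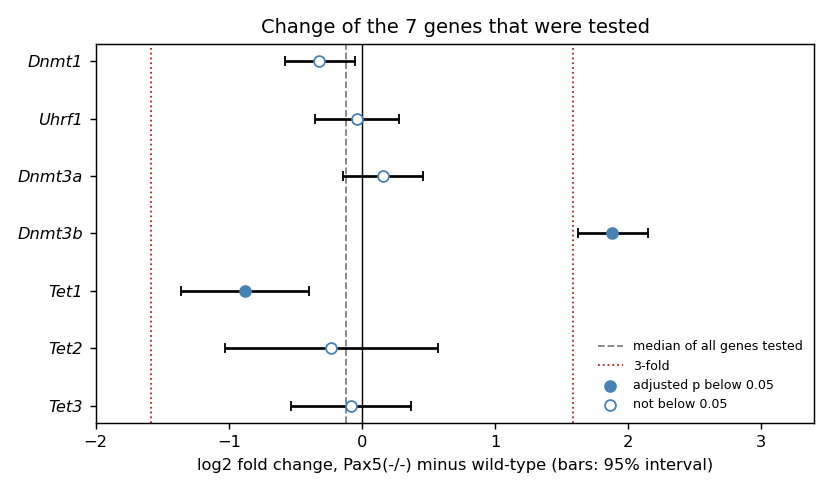
Log2 fold change of the 7 genes tested, Pax5(-/-) minus wild-type, with 95% intervals from limma on 3 and 2 libraries. Filled points passed an adjusted p of 0.05. Dnmt3b at 1.88 lies right of the 3-fold line, Tet1 at -0.88 lies left of 0, and the other 5 points lie between -0.32 and 0.16 around the median of all genes of -0.12 (dashed).

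*Tdg*, the glycosylase that completes removal, was the lowest of the 8 genes in every library. It was at 0.708, 0.810 and 1.03 TPM in wild-type and at 1.01 and 0.815 TPM in Pax5(-/-) cells, with overlapping groups. In the Pax5(+/+) Meox2-cre libraries it was listed at 0, 0.0328 and 0.0329 TPM, below every library of the other groups. The annotated transcript of *Tdg* has near-identical copies elsewhere in the genome. Of its 3453 windows of 50 bases, the read length listed for the wild-type and Pax5(-/-) libraries, 79.0% had an exact copy elsewhere in mm9 and 86.5% a copy with at most 2 mismatches. The longest copies were on chromosome 15 (98.6% identity over 3026 bases, in *Gm5806*), on chromosome 7 (99.3% over 2935 bases) and on chromosome 10 (99.3% over 2805 bases, in *Gm9855*). *Gm9855* was listed at 0 in all 8 libraries. A window of the coding sequence shows this, since the same 50 bases occur at 4 places in mm9, at chr10:82101527-82101576 in *Tdg*, at chr7:83390744-83390793, at chr10:41775031-41775080 in *Gm9855* and at chr15:82346946-82346995 in *Gm5806*.
Tdg: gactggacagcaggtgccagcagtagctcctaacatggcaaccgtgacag
A single read of that length from such a window cannot be placed at 1 position, and the counting does not keep reads without a single position by default. The levels of *Tdg* are therefore uncertain, and whether they are low for this reason was not tested. The sources list single reads for the Pax5(+/+) Meox2-cre libraries too but describe their alignment as paired, so that the windows may be shorter than the sequence read there. *Tdg* also shares 367 exonic bases with *Glt8d2* on the opposite strand.

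The other genes were less affected by copies, with the exception of *Uhrf1*. Of the windows of *Uhrf1*, 68.0% had a copy elsewhere with at most 2 mismatches and 29.6% an exact copy, the longest of which was on the X chromosome (97.7% identity over 2590 bases, in *Gm5648*). The level of *Uhrf1* is uncertain to that extent, although it was the highest of the 8. For *Dnmt3b* the shares were 15.7 and 8.05%, with the longest copies in the neighbouring gene *Gm14490* on chromosome 2. At most 2.08% of the windows of *Dnmt3a*, *Tet1*, *Tet2* and *Tet3* had such a copy, and none of those of *Dnmt1*.

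**Figure D4:**
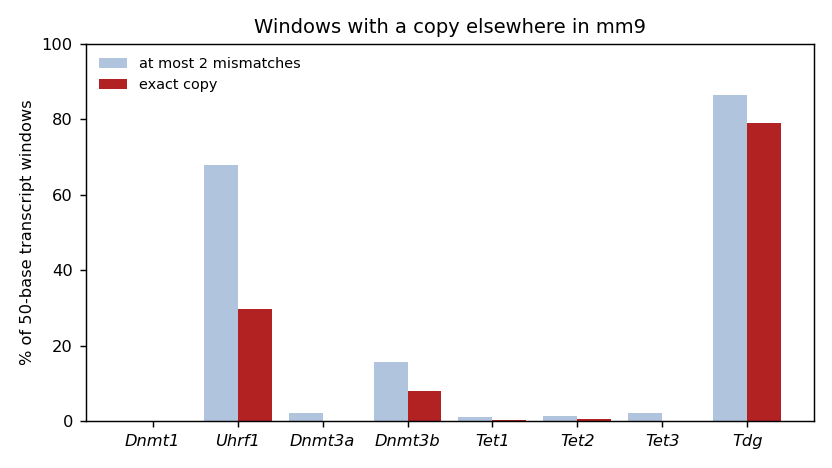
Percentage of the 50-base windows of each gene's longest annotated transcript that occur again elsewhere in mm9, with at most 2 mismatches (light) or exactly (dark). Tdg (86.5 and 79.0%) and Uhrf1 (68.0 and 29.6%) stand far above the other genes, the next being Dnmt3b (15.7 and 8.05%).

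In the order of levels, wild-type cells had *Uhrf1* (677 ± 56.0 TPM, SD, n = 3) above *Dnmt1* (419 ± 11.9 TPM), *Dnmt3a* (54.5 ± 2.81 TPM), *Tet3* (40.9 ± 6.30 TPM), *Dnmt3b* (25.8 ± 1.04 TPM), *Tet1* (5.77 ± 0.608 TPM), *Tet2* (4.95 ± 1.85 TPM) and *Tdg* (0.848 ± 0.163 TPM). Of these neighbours, only *Tet1* and *Tet2* overlapped in their libraries. In Pax5(-/-) cells *Dnmt3b* (96.5 ± 5.43 TPM, SD, n = 2) moved above *Dnmt3a* (61.1 ± 9.06 TPM) and *Tet3* (39.0 ± 9.60 TPM), and *Tet1* (2.90 ± 0.0228 TPM) fell behind *Tet2* (4.06 ± 1.33 TPM), with no overlap between neighbours. The Pax5(+/+) Meox2-cre libraries kept the wild-type order. They had 592 ± 35.8 TPM of *Uhrf1*, 401 ± 22.5 TPM of *Dnmt1*, 60.9 ± 2.18 TPM of *Dnmt3a*, 35.9 ± 0.831 TPM of *Tet3*, 25.8 ± 0.495 TPM of *Dnmt3b*, 6.12 ± 0.423 TPM of *Tet1* and 5.64 ± 0.597 TPM of *Tet2* (SD, n = 3 for each), and again only *Tet1* and *Tet2* overlapped. *Dnmt3b* was thus at 25.8 TPM in both Pax5-expressing groups, which were processed with different aligners and genome builds.

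The genes that act with these enzymes were examined as lists. A list of base excision repair genes, some of which act after Tet oxidation, was joined with deaminases and Gadd45 genes. Of 17 tested in it, 4 rose and 10 fell, beside 15.6 and 21.5% of all genes tested, with a median log2 fold change of -0.71. *Parp1*, the poly(ADP-ribose) polymerase that senses strand breaks, rose from 633, 641 and 645 TPM to 2558 and 2481 TPM (log2 fold change 1.98 ± 0.09, SE, limma adjusted p = 1.1e-05). With *Parp1* the summed level of the list rose from 1936 to 1992 TPM in wild-type to 3434 and 3553 TPM in Pax5(-/-) cells. *Apex1*, the endonuclease that opens the strand at the empty site, rose from 105, 88.6 and 74.9 TPM to 185 and 180.4 TPM. *Ung*, the uracil glycosylase, rose from 77.8 to 96.4 TPM to 159.8 and 118 TPM, and *Gadd45g*, a stress-response gene linked to demethylation, from 4.08 to 5.86 TPM to 8.78 and 8.80 TPM. The call of *Ung* was lost without Pax5(-/-) library 1 (limma adjusted p = 0.12), and that of *Gadd45g* without Pax5(-/-) library 1 (0.18) or 2 (0.20) or wild-type library 2 (0.063).

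The genes that fell included glycosylases and deaminases. *Neil1*, a glycosylase for oxidized bases that also works behind *Tdg*, fell from 99.3, 111 and 119 TPM to 23.0 and 25.3 TPM (log2 fold change -2.16 ± 0.12, SE, limma adjusted p = 2.4e-05). *Apobec2*, a muscle-type member of the deaminase family, fell from 20.1, 20.5 and 15.4 TPM to 2.07 and 1.88 TPM (log2 fold change -2.94 ± 0.20, SE, limma adjusted p = 5.7e-05). *Apobec1*, which edits RNA, fell from 28.0, 28.2 and 42.0 TPM to 5.03 and 5.10 TPM. *Gadd45b* fell from 52.2, 44.5 and 36.0 TPM to 11.9 and 14.8 TPM, while *Neil3*, *Gadd45a*, *Xrcc1*, *Mbd4*, *Polb* and *Apobec3* fell by 0.43 to 1.4 on the log2 scale. Without Pax5(-/-) library 1 or 2, the calls were lost of *Mbd4* (limma adjusted p = 0.069 and 0.13), *Polb* (0.077 and 0.083) and *Apobec3* (0.12 and 0.086).

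In the Pax5(+/+) Meox2-cre libraries *Parp1* was at 686, 686 and 732 TPM, *Neil1* at 103, 98.3 and 109.7 TPM and *Apobec2* at 20.9, 25.7 and 30.0 TPM, which is nearer to the wild-type than to the Pax5(-/-) values for each of these genes. *Apex1* (215, 257 and 202 TPM) and *Xrcc1* (122, 117 and 130.1 TPM) were nearer to the Pax5(-/-) values, and since those tables were normalized separately, aligner, build and mice cannot be told apart there.

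Of the partners of maintenance methylation, 3 rose and 4 fell of 10 tested, where 15.6 and 21.5% of all genes did, and the median log2 fold change was -0.19. *Cdca7*, which recruits the chromatin remodeller *Hells*, rose from 302, 292 and 291 TPM to 569.7 and 507 TPM (log2 fold change 0.86 ± 0.10, SE, limma adjusted p = 5.2e-04). Its relative *Cdca7l* rose from 56.9 to 77.3 TPM to 94.7 and 85.5 TPM, and the corepressor *Trim28* from 586 to 698 TPM to 813 and 782 TPM. Both calls were lost without Pax5(-/-) library 1 or 2 (limma adjusted p = 0.25 and 0.16 for *Cdca7l*, 0.25 and 0.20 for *Trim28*) and without wild-type library 1 or 2 (0.080 and 0.10, 0.082 and 0.098). *Hells* itself, at 61.0 to 68.1 TPM in wild-type and 57.6 and 48.5 TPM in Pax5(-/-) cells, did not pass (limma adjusted p = 0.10). *Uhrf2*, the relative of *Uhrf1*, fell from 37.0, 56.0 and 64.2 TPM to 23.1 and 24.7 TPM (log2 fold change -1.08 ± 0.22, SE, limma adjusted p = 0.0083), a call that was lost without the first or the second Pax5(-/-) library (limma adjusted p = 0.098 and 0.092). *Pcna*, the replication clamp that binds *Dnmt1*, fell from 826 to 962 TPM to 603 and 518 TPM, and the deubiquitinase *Usp7* (log2 fold change -0.55) and the ligase *Lig1* (-0.41) fell as well. The call of *Pcna* was lost without Pax5(-/-) library 2 (limma adjusted p = 0.075), that of *Usp7* without Pax5(-/-) library 1 (0.16) or 2 (0.29) or wild-type library 2 (0.11) or 3 (0.073), and that of *Lig1* when any 1 of the wild-type libraries was left out (0.093, 0.066 and 0.084) and without Pax5(-/-) library 2, where its log2 fold change was -0.21 (0.34). *Dnmt3l*, the cofactor of de novo methylation in germ cells, was at or below 0.0921 TPM in these 5 libraries and was not tested, and *Dppa3* was listed at 0 in all of them.

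**Figure D5:**
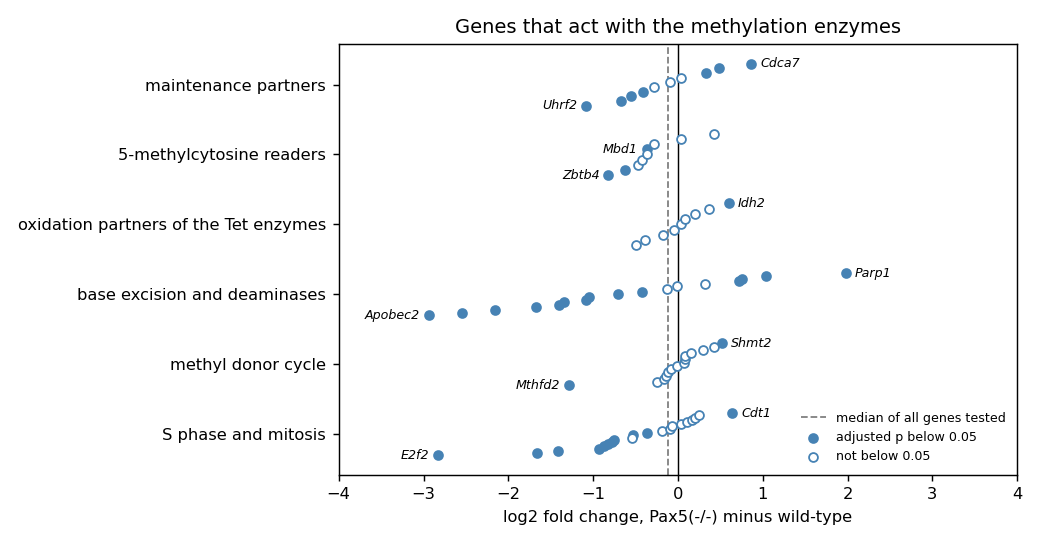
Log2 fold change, Pax5(-/-) minus wild-type, of every tested gene in the 6 lists, with 1 point per gene, filled where the adjusted p was below 0.05, and the extreme filled genes named. In base excision and deaminases the filled points run from -2.94 (Apobec2) to 1.98 (Parp1), whereas in the oxidation partners of the Tet enzymes 1 point of 9 is filled, Idh2 at 0.60.

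Of the readers of 5-methylcytosine, none rose and 3 fell of 9 tested, with a median of -0.37, beside 15.6% higher and 21.5% lower among all genes tested. *Mbd2*, a member of the NuRD complex that binds methylated promoters, fell from 164, 166 and 184 TPM to 108 and 114 TPM (log2 fold change -0.62 ± 0.10, SE, limma adjusted p = 0.0030). *Zbtb4* fell from 6.13 to 7.43 TPM to 3.69 and 3.45 TPM, and *Mbd1* from 67.8 to 80.3 TPM to 58.9 and 56.5 TPM. Without Pax5(-/-) library 1 or 2 the calls of *Zbtb4* (limma adjusted p = 0.11 and 0.15) and *Mbd1* (0.16 and 0.23) were lost, as they were without wild-type library 2 (0.058 and 0.090) and, for *Mbd1*, 3 (0.067). Of 9 tested partners of Tet oxidation, 1 rose and none fell, against the same 15.6 and 21.5%. This was *Idh2*, the mitochondrial enzyme that makes the Tet cofactor 2-oxoglutarate, which went from 410.4, 392 and 317 TPM to 559.5 and 566 TPM (log2 fold change 0.60 ± 0.13, SE, limma adjusted p = 0.0090). That call was also lost without either Pax5(-/-) library (limma adjusted p = 0.088 and 0.10). In the methyl donor cycle, which supplies S-adenosylmethionine, 1 gene rose and 1 fell of 14 tested, with a median of 0.03, again beside 15.6% higher and 21.5% lower. These were the folate enzymes of mitochondria *Shmt2* (298 to 384 TPM against 529 and 439 TPM) and *Mthfd2* (66.0 to 98.7 TPM against 39.0 and 28.0 TPM). The call of *Shmt2* was lost without Pax5(-/-) library 1 (limma adjusted p = 0.19) or 2 (0.076) or wild-type library 2 (0.055), and that of *Mthfd2* without Pax5(-/-) library 2 (0.056).

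As a readout of lost methylation, 20 germline genes were examined that are silenced by promoter methylation in somatic cells, of which 19 were listed in the mm9 tables. Their summed level was 1.34 to 2.33 TPM in wild-type, 1.62 and 1.67 TPM in Pax5(-/-) and 3.01 to 4.18 TPM in Pax5(+/+) Meox2-cre libraries, where all 20 were listed. Only *Brdt* passed the filter on low values, at 1.03, 1.61 and 1.32 TPM in wild-type and 0.737 and 1.08 TPM in Pax5(-/-) cells, and it did not pass the test (limma adjusted p = 0.35). These low sums do not measure methylation, which was not assayed here.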

How the data were processed

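RNA-seq TPM of 8 of the 29 samples were analysed; the ChIP-seq samples were not analysed here. Per the labels and the study's methods, poly(A)+ RNA was sequenced and ribosomal RNA reads were removed. For wild-type and Pax5(-/-) cells the authors aligned reads to mm9 with TopHat 1.4.1a and counted them with featureCounts 1.5.0 on a modified refGene annotation. For Pax5(+/+) Meox2-cre cells they used STAR 2.4.2a, mm10 and featureCounts 1.5.0. The deposited values are TPM, among them those of immunoglobulin and T cell receptor genes. Levels between these tables were not tested. The mark IMP_OVL, which the mm9 entries of *Dnmt1*, *Tdg*, *Parp1*, *Apex1*, *Gadd45a*, *Apobec3*, *Cdca7l*, *Lig1* and *Shmt2* carry after the symbol, is not explained in the sources used here. The entries of the cell type markers *Lck*, *Cd247* and *Cox6a2* carry it too.

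The comparison used limma 3.58.1 in R 4.3.3 (lmFit, eBayes with trend) on log2(TPM + 0.5), without covariates and with Benjamini-Hochberg adjustment, for genes whose mean exceeded 1 TPM in either genotype. The authors had used DESeq2 on counts, which TPM do not give. In simulated data for this comparison with 12066 genes, 47 of 100 genes changed 2-fold and 90 of 100 changed 4-fold were called, as were 6 unchanged genes. Shares and ratios were tested by exact two-sided permutation (scipy 1.17.1). Copies were searched with blastn 2.17.0 for 50-base windows of the longest GENCODE transcript in mm9. Promoters are from RefSeq (GRCm38.p6), and proteins were not used here. Figures were drawn with matplotlib 3.10.9.

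The members and lists were chosen with earlier results of these data known. Named genes are the 8 genes, Pax5 and, of the 4 lists of partners, readers, oxidation and excision, genes that passed the test (values for up to 4 in each direction), of the other lists up to 2 in each direction, and the 3 genes nearest to *Dnmt3b*. *Ly6d* and the other markers of cell types, the Mcm genes, *Hells*, *Brdt*, *Dnmt3l* and *Dppa3* were named after their values were seen, as were the Meox2-cre values of *Apex1* and *Xrcc1*. Alternatives were other pseudocounts, filters, scalings, eBayes settings and call thresholds, and leaving out each library.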

Additional observations from a re-analysis of the deposited data

How the results depend on the processing

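*Dnmt3b* kept its direction and call in all 14 alternatives of its fold change, with log2 fold changes of 1.83 to 1.99 and adjusted p between 1.2e-05 and 0.0053. It was also past the 3-fold rule in 16 of 17 alternatives, and under limma's treat test against 3-fold 0 of the 8 genes were called. Among the 16, a looser rule of more than 2-fold and a limma adjusted p below 0.01 were already met by the main fit. *Tet1* was lower in all 14, by 0.76 to 0.97 on the log2 scale, and its call was lost in 3, so that the number of the 8 genes called lower was 0 with no filter on low values and 0 to 1 with a library left out. *Dnmt1* remained lower in all 14 (-0.47 to -0.16) and passed in none (adjusted p between 0.058 and 0.42), and *Dnmt3a* was higher in all 14 (0.01 to 0.31, adjusted p between 0.11 and 0.98).

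The direction of the other genes was not fixed. Rescaling by median ratios and quantile normalization turned *Uhrf1* to 0.07 and 0.07, and *Tet3* to 0.03 and 0.03, and with a library left out *Uhrf1* ran from -0.22 to 0.14, *Tet3* from -0.33 to 0.17 and *Tet2* from -0.53 to 0.07. The difference in the share of *Tet2* ran from -1.65 to 0.622 percentage points. Those scalings moved the median of all genes from -0.12 to -0.01 and -0.02. Over all genes, 1885 were called higher and 2596 lower, against 1164 and 1257 with no filter (24732 genes tested) and 704 to 1977 and 825 to 3233 with a library left out. The counts were 799 and 990 without the first and 704 and 825 without the second Pax5(-/-) library, where the lone Pax5(-/-) sample is assumed to vary like the wild-type samples. Of the partner genes, *Parp1*, *Neil1*, *Apobec1*, *Apobec2*, *Gadd45b*, *Cdca7*, *Apex1*, *Mbd2*, *Neil3*, *Gadd45a*, *Xrcc1*, *E2f2* and *Rrm2* kept their calls in all 14. *Lig1* passed in 6, *Usp7* and *Mbd1* in 7, *Cdca7l* and *Trim28* in 8, *Shmt2* in 9, *Gadd45g*, *Zbtb4* and *Apobec3* in 10, *Uhrf2*, *Idh2*, *Mbd4* and *Polb* in 11, and *Pcna*, *Ung*, *Mthfd2* and *Cdt1* in 12. Of 32 called genes followed in this way, *Dnmt3b* and *Tet1* included, the call was lost for 18 with no filter, for 15 without Pax5(-/-) library 1 and 16 without library 2, and for 3, 8 and 3 without the first, the second and the third wild-type library.

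No paired analysis was possible because the library numbers used here follow only the order of the samples, and no label numbers the replicates or pairs libraries across genotypes. With 2 Pax5(-/-) libraries and no read counts, low genes such as *Tet1* and *Tet2* are measured with unknown counting error, and a change in *Tet2* smaller than its interval could not be detected.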
